A study of Mus musculus with 6 samples.

Results

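The genes described here were 10 genes of the unfolded protein response of the endoplasmic reticulum (ER), taken by symbol from a count table of 53465 mouse genes. They were *Eif2ak3*, *Atf4* and *Ddit3* of the PERK arm, *Ern1*, *Xbp1*, *Dnajb9* and *Edem1* of the IRE1 arm, and *Atf6*, *Hspa5* and *Hsp90b1* of the ATF6 arm. Each symbol matched 1 Ensembl gene in the table, all 10 genes had at least 1 count, and 9 passed the filter on low counts that left 11842 genes to be tested. *Xbp1* did not pass it.

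The oocytes came from aged Kun Ming (KM) female mice, an outbred stock, at 9 to 10 months of age. Immature oocytes were freed of cumulus cells by pipetting and matured in vitro (IVM) in M16 medium for 16 h, without quercetin in the control group (0 μM) or with 10 μM quercetin, a plant flavonol used as an antioxidant. Metaphase II (M II) oocytes were then sequenced in pools, each of 15 oocytes from 3 mice, with 3 pools in each group, numbered here by their replicate labels. Both groups therefore shared age, stock, base medium and time in culture. No young animals were in the comparison, and a value of a pool is an average over its oocytes. Quercetin was dissolved in DMSO, and whether the control medium held DMSO is not given in the sources used here.

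Misfolded proteins in the ER are sensed by PERK, IRE1 and ATF6, which are held inactive by the chaperone BiP. PERK slows translation through eIF2 and favours translation of ATF4, which can induce CHOP. IRE1 cuts the *Xbp1* mRNA so that it encodes an active transcription factor, and ATF6 is cleaved in the Golgi to release another, and together these raise chaperones and the machinery that removes misfolded proteins. The growing oocyte makes and secretes the glycoproteins of its zona pellucida through the ER, and the fully grown oocyte is largely silent in transcription, so that its mRNA is mostly a store laid down earlier.

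Total counts were 7880467 to 9938743 per pool, and 3 counts, used as the limit of detection, stood for 0.328 to 0.375 CPM, the counts relative to each pool's total after scaling by the trimmed mean of M values (TMM). All 12 oocyte markers had at least 1 count over the pools, and 11 had a mean of at least 1 CPM. Their sums were 24509 to 27940 CPM in the control pools and 25965 to 29548 CPM in the quercetin pools. Of 13 cumulus and granulosa markers, 8 had at least 1 count and 5 had a mean of at least 1 CPM. *Amh*, *Amhr2*, *Foxl2*, *Ptx3* and *Slc38a3* were at 0 in every pool. The sum of the 13 markers was 70.2 to 86.0 CPM in the control pools and 91.4 to 96.7 CPM in the quercetin pools. Most of it was *Cyp19a1* (58.2 to 75.7 CPM), and the sums of the groups did not overlap. Marker sums of theca and stroma (1.20 to 3.36 CPM), blood and immune cells (3.14 to 3.83 CPM) and endothelium (34.0 to 42.6 CPM, most of it *Pecam1*) overlapped between the groups. In these 3 lists, 3 of 5, 3 of 6 and 2 of 3 markers had at least 1 count. A mean of at least 1 CPM was reached by 1, 1 and 2 of them. The share of counts on 13 mitochondrial genes was 2.77%, 2.59% and 2.23% in the control pools and 2.09%, 2.00% and 1.86% in the quercetin pools, lower in every quercetin pool. Beside this share and the cumulus and granulosa sum, 10.6% of all tested genes had groups that did not overlap. The part of these markers and of the mitochondrial share in the values below was not tested. Whether the *Cyp19a1* counts came from attached cells was not tested either. In pooled RNA, a change in the number of attached cells and a change in RNA per cell cannot be told apart. The first principal component of the tested genes held 32.4% of the variance and did not follow the groups, since quercetin pool 3 (30.8) lay beside control pool 2 (31.3), while quercetin pools 1 and 2 lay at -37.9 and -30.9 and control pools 1 and 3 at -3.34 and 10.1. The log2 fold changes of the 9 tested genes are given with and without quercetin pool 3.

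The levels of the 10 genes were compared first, as CPM per kb of exon, so that long and short genes can be set side by side. *Ern1*, which encodes the sensor IRE1α, had the highest level at 83.8 CPM per kb, above 94.2% of the tested genes. *Hsp90b1*, the ER chaperone GRP94, followed at 43.5 and *Hspa5*, the chaperone BiP, at 13.1 CPM per kb, and in every pool *Ern1* was above *Hsp90b1* and *Hsp90b1* above *Hspa5*. *Ern1* alone took 57.46% to 68.6% of the counts on the 10 genes, which together took 0.0944% to 0.114% of all counts.

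The middle of the order held *Edem1* (7.03 CPM per kb), *Eif2ak3* (6.63), *Atf4* (5.33) and *Atf6* (4.59), which lay above 56.9% to 64.9% of the tested genes. From *Hspa5* down to *Atf6*, each gene overlapped in its pools with the next, so the ranges do not settle the order of these neighbours. Compared within each pool, the gene with the higher mean was above the next in 3 to 5 of the 6 pools. With the length of the longest transcript in place of all exons, *Edem1* and *Eif2ak3* changed places and the other 8 genes held their rank. At the lower end, *Dnajb9* (2.21 CPM per kb), *Ddit3* (1.02) and *Xbp1* (0.0310) were each below the gene before them in every pool. Among the 3 sensors, *Ern1* stood above the others in every pool, and per length it was 11.2 to 16.2 times *Eif2ak3* and 12.9 to 21.5 times *Atf6* over the 6 pools.

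**Figure D1:**
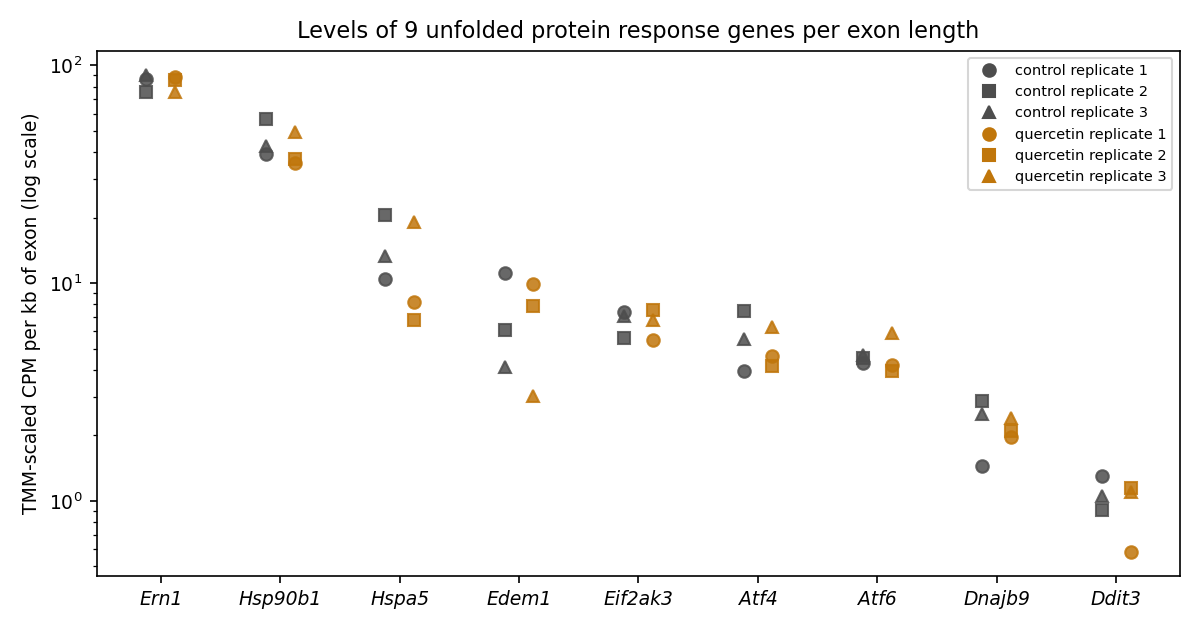
TMM-scaled CPM per kb of exon (log axis) of 9 genes in 3 control (grey) and 3 quercetin (orange) pools, each point 1 pool, in order of the mean. *Ern1* lies at the top and *Ddit3* at the bottom, and the middle genes overlap; *Xbp1*, with 5 counts over all pools, is left out.

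In the PERK arm, the sensor, its translated target and the CHOP gene all overlapped between the groups. *Eif2ak3* encodes PERK, the ER kinase that phosphorylates eIF2α, and lies on chromosome 6 from 70844515 to 70905245 on the plus strand (ENSMUSG00000031668; GRCm38, as are all coordinates here unless named otherwise). It stood at 44.6, 33.8 and 42.4 CPM in control pools 1 to 3 and at 32.9, 45.4 and 40.7 CPM in quercetin pools 1 to 3. The lowest control and the lowest quercetin pool were almost level. The means were 40.3 ± 5.74 and 39.7 ± 6.33 CPM (SD, n = 3 pools each), and the log2 fold change of quercetin over control was -0.02 (SE 0.20, 95% interval -0.48 to 0.43, exact permutation p = 0.8). A gene on the other strand, *Gm43292*, covers 8.05% of its exon length.

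*Atf4* (ENSMUSG00000042406, chromosome 15 from 80255184 to 80257541, plus strand) encodes the transcription factor of the integrated stress response, whose translation rises when eIF2α is phosphorylated, a step that mRNA counts do not show. Its values were 9.28, 17.5 and 13.1 CPM in the control pools and 10.9, 9.84 and 14.8 CPM in the quercetin pools. Control pool 2 was the highest and control pool 1 the lowest of the 6, so the control pools spanned the quercetin pools. The log2 fold change was -0.17 (SE 0.29, 95% interval -0.82 to 0.49, exact permutation p = 0.7) between 13.3 ± 4.10 and 11.8 ± 2.61 CPM (SD, n = 3).

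*Ddit3* (ENSMUSG00000025408, chromosome 10 from 127290774 to 127296288, plus strand) encodes CHOP, a transcription factor linked to cell death under lasting ER stress. It had only 20, 13 and 16 counts in the control pools and 8, 18 and 16 in the quercetin pools, or 1.86 ± 0.345 and 1.62 ± 0.535 CPM (SD, n = 3). Quercetin pool 1 was the lowest and control pool 1 the highest, with the other 4 pools mixed. The log2 fold change was -0.20, with an SE of 0.41 and a 95% interval of -1.12 to 0.72 (exact permutation p = 0.7), so that a 2-fold decrease lay within the interval at this depth. Other genes, among them *Mars* on the opposite strand and a second gene model of the same name, cover 10.9% of its exon length.

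In the IRE1 arm, the sensor was the most abundant and the least variable of the 9 tested genes, whereas its substrate was nearly undetected. *Ern1* lies on the minus strand of chromosome 11, from 106394650 to 106487852 (ENSMUSG00000020715). It had 6355, 5176 and 6612 counts in the control pools and 5767, 6384 and 5280 in the quercetin pools, which corresponded to 710.9, 619.8 and 741.6 CPM and to 720.5, 698.2 and 619.4 CPM. Control pool 2 and quercetin pool 3 were the lowest of their groups, at almost the same level, and the highest pool was 1.20 times the lowest. Between 690.8 ± 63.3 and 679.4 ± 53.1 CPM (SD, n = 3), the log2 difference was -0.02 (SE 0.14, 95% interval -0.34 to 0.29, exact permutation p = 0.7).

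*Xbp1* (ENSMUSG00000020484, chromosome 11 from 5520659 to 5525893, plus strand) had 0, 4 and 0 counts in the control pools and 1, 0 and 0 in the quercetin pools. Only control pool 2 was above the limit of 3 counts, and 4 of the 6 pools held no read of the gene, so no fold change is given. The site that IRE1 cuts is printed here as the place where its activity would be read, in the fourth of 5 exons of the reference transcript, on chromosome 11 from 5524279 to 5524304. Capitals mark the 26 bases in coding sequence that lie between the cuts made after the third base of each C-N-G-C-A-G core, and whose removal shifts the reading frame.
Xbp1 mRNA: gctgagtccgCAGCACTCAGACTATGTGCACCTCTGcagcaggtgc
With 5 counts over the whole gene, and with counts per gene that do not separate cut from uncut mRNA, the splicing of *Xbp1* could not be read from these data.

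*Dnajb9* (ENSMUSG00000014905, chromosome 12 from 44205559 to 44210326, minus strand) encodes ERdj4, an ER cochaperone of BiP and a known target of XBP1. It was counted 33, 61 and 57 times in the control pools and 40, 49 and 52 times in the quercetin pools. The quercetin pools all lay inside the span of the control pools, whose lowest was control pool 1. The means of 5.80 ± 1.88 and 5.49 ± 0.562 CPM (SD, n = 3) gave a log2 fold change of -0.08 (SE 0.31, 95% interval -0.78 to 0.63, exact permutation p = 0.9). The predicted gene *Gm6568* shares 10.8% of its 31-base words, so some reads may belong to either.

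*Edem1* (ENSMUSG00000030104, chromosome 6 from 108828641 to 108859356, plus strand) encodes a lectin-like protein that hands misfolded glycoproteins to ER-associated degradation. It varied most, at 71.8, 39.5 and 26.7 CPM in the control pools and 64.0, 50.6 and 19.6 CPM in the quercetin pools. Pool 1 was the highest and pool 3 the lowest in both groups, and the highest of the 6 values was 3.67 times the lowest. The means were nearly level at 46.0 ± 23.3 and 44.7 ± 22.8 CPM (SD, n = 3), with a log2 fold change of -0.04 whose 95% interval, -1.07 to 0.99, spanned a 2-fold change downward (SE 0.45, exact permutation p = 0.9).

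In the ATF6 arm, both chaperones had lower means with quercetin, but in each the quercetin pools were split and overlapped the controls. *Atf6* (ENSMUSG00000026663, chromosome 1 from 170704674 to 170867771, minus strand) encodes the sensor whose cleaved form enters the nucleus. It stood at 39.7, 41.7 and 43.2 CPM in the control pools and at 38.7, 36.6 and 54.4 CPM in the quercetin pools. The control pools lay close together, with quercetin pools 1 and 2 just below them and quercetin pool 3 above them. The log2 fold change was 0.06 (SE 0.20, 95% interval -0.39 to 0.51, exact permutation p = 1) between 41.5 ± 1.74 and 43.3 ± 9.72 CPM (SD, n = 3).

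*Hspa5* (ENSMUSG00000026864, chromosome 2 from 34771970 to 34777547, plus strand) encodes BiP, the chaperone that binds the 3 sensors and the usual readout of ER stress. Its values were 44.1, 87.2 and 56.5 CPM in the control pools and 34.7, 28.5 and 80.9 CPM in the quercetin pools. Quercetin pools 1 and 2 were below every control pool, while quercetin pool 3 was second only to control pool 2. Between 62.6 ± 22.2 and 48.1 ± 28.6 CPM (SD, n = 3), the log2 difference was -0.38, the largest in size among the 9 tested genes, with an SE of 0.40 and a 95% interval of -1.29 to 0.52 (exact permutation p = 0.4). Without quercetin pool 3 it was -0.98, with an adjusted p of 0.283 by edgeR (quasi-likelihood test, Benjamini-Hochberg adjusted). Without control pool 2 it was -0.06.

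*Hsp90b1* (ENSMUSG00000020048, chromosome 10 from 86690209 to 86705509, minus strand) encodes GRP94, the ER member of the HSP90 family. It stood at 157.3, 229.9 and 172.2 CPM in the control pools and at 142.9, 149.95 and 199.1 CPM in the quercetin pools. As with *Hspa5*, quercetin pools 1 and 2 were the lowest, control pool 2 the highest and quercetin pool 3 next to it. The log2 fold change was -0.19 (SE 0.20, 95% interval -0.63 to 0.26, exact permutation p = 0.5) between 186.5 ± 38.4 and 164.0 ± 30.6 CPM (SD, n = 3). Other genes, chiefly *1810014B01Rik* on the opposite strand, cover 15.7% of its exon length, and because the library kit does not mark strand, their reads cannot be told apart there.

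**Figure D2:**
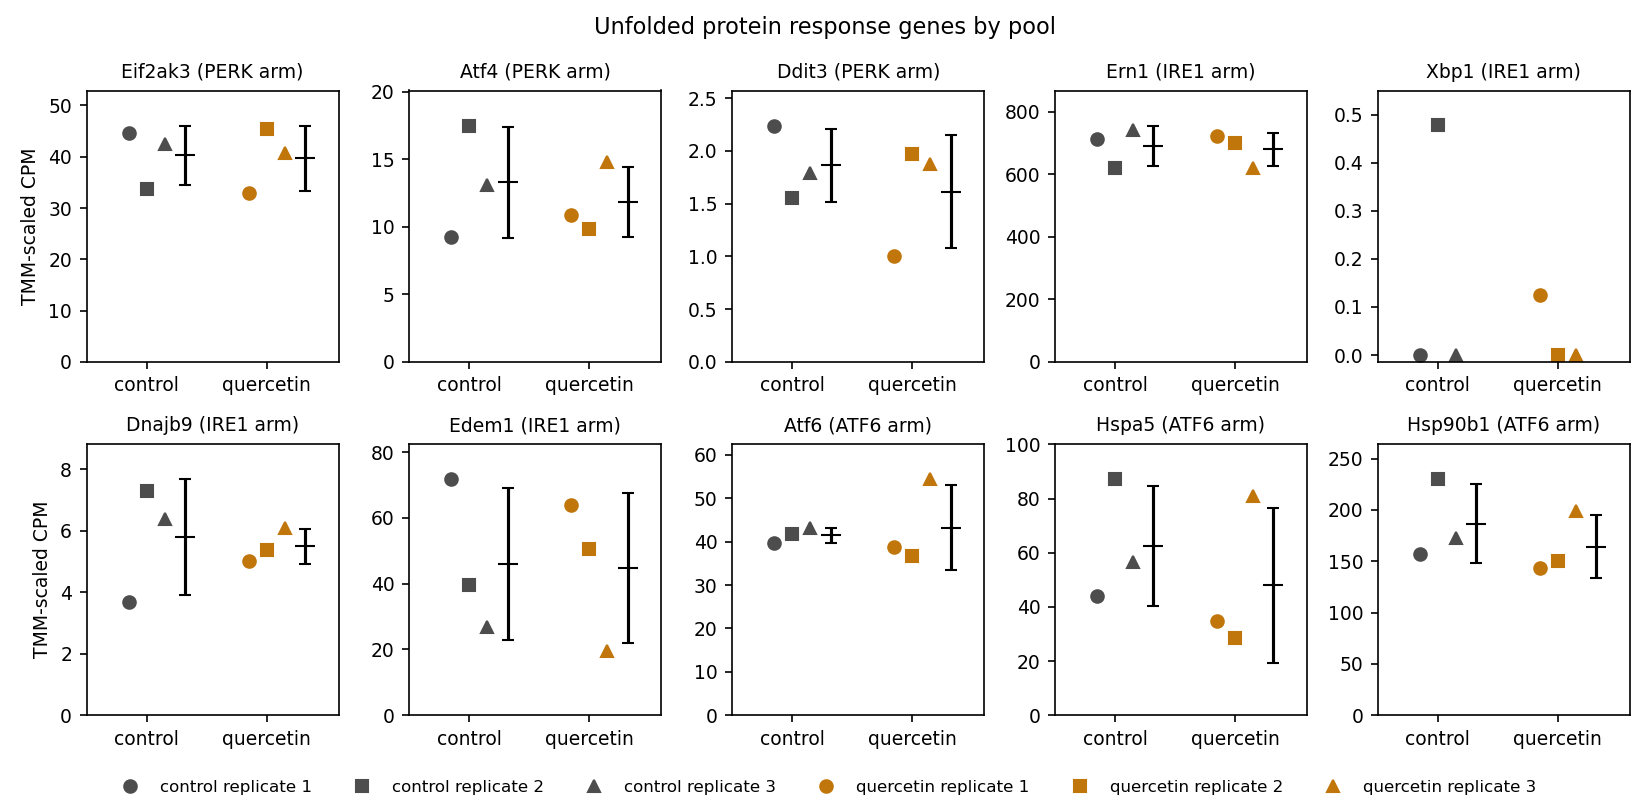
TMM-scaled CPM of the 10 genes in each control (grey) and quercetin (orange) pool, 1 panel per gene with its own linear axis, bars giving the mean ± SD of 3 pools (not drawn for *Xbp1*, which had 5 counts in all). The groups overlap in every panel. Quercetin pool 3 (orange triangle) lies outside the other quercetin pools, by more than those pools differ, in *Atf4*, *Ern1*, *Dnajb9*, *Edem1*, *Atf6*, *Hspa5* and *Hsp90b1*.

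The ER stress response element (ERSE), the motif through which ATF6 is known to act, was looked for in the promoters of these genes. The letters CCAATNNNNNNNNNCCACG were searched on both strands in the RefSeq promoters of the mouse (GRCm38.p6), from 250 bases before to 50 bases after each start, and occurred in 39 of 32534 promoters (0.120%). Of the 9 genes with a promoter in that table (*Atf6* had none), the motif was found in *Hspa5* at position -65 from the start, and on each strand of *Hsp90b1*, at -212 and -107. The promoters are shown with the motif in capitals, for *Hspa5* at chr2:34771840-34772139 on the plus strand and for *Hsp90b1* at chr10:86705395-86705694 on the minus strand.
Hspa5: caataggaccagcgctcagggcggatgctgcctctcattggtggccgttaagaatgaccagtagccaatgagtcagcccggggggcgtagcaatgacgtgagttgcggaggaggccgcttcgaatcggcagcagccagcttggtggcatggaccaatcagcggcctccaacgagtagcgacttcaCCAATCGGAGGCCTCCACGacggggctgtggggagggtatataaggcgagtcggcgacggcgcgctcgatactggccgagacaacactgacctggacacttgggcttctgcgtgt
Hsp90b1: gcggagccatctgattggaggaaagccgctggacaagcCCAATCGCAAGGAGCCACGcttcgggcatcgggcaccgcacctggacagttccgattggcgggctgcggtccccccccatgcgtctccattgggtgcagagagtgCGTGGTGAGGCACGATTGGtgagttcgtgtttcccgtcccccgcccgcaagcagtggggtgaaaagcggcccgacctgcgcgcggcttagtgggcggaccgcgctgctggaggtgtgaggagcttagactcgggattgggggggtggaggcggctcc
The related letters ATTGGNCCACG (ERSE-II), TGACGTGG (the core of the XBP1 element) and TTGCATCA (a core of the ATF4 element) occurred in 0.0369%, 0.682% and 0.867% of promoters and in none of these 9 windows. The ERSE contains CCAAT, which by itself occurred in 37.4% of promoters. A match describes the letters of the window and was not tested as a binding site. Only exact matches were counted, so a window without one may still hold a variant of the motif.

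None of the 10 genes was shown to differ between quercetin and control. By edgeR (quasi-likelihood test, Benjamini-Hochberg adjusted), 0 of the 9 tested genes passed an adjusted p under 0.05 with a fold change over 2, and this held for 0% of all 11842 genes (DESeq2 called 12 of all genes, edgeR's likelihood ratio test 16 and limma-voom 0, none of them among the 9). At an unadjusted p under 0.05, 0 of the 9 passed, against 477 genes or 4.03% of all genes tested. The pools of the groups were apart in 0 of the 10 genes, against 10.6% of all genes tested. The adjusted p-values of the 9 genes were 0.988 to 0.999 by edgeR, and their exact permutation p-values 0.4 to 1, where the smallest that 3 pools against 3 allow is 0.1.

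The 9 log2 fold changes ran from -0.38 to 0.06, with 8 below 0 and *Atf6* above it. Their median was -0.08, beside -0.03 over all tested genes, of which 25% lay under -0.24 and 75% under 0.17. The 95% intervals of 6 genes stayed within a 2-fold change in either direction, and those of *Ddit3*, *Edem1* and *Hspa5* reached past a 2-fold decrease. These tests bound the change in mRNA level between the pools, and whether pools shared mice or cultures is not given in the sources used here, so the p-values measure only the spread between pools.

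**Figure D3:**
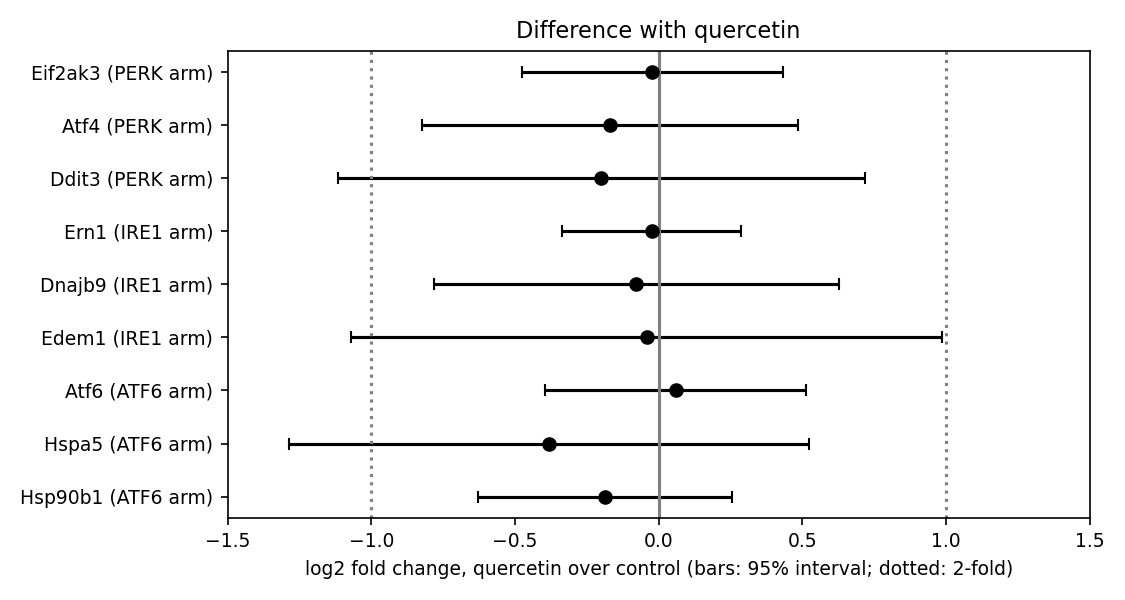
Log2 fold change of quercetin over control for the 9 tested genes (points) with 95% intervals (bars) from edgeR's quasi-likelihood fit, dotted lines marking 2-fold. Every interval spans 0, and the narrowest is that of *Ern1* (-0.34 to 0.29).

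Several of these values depended on single pools, among them quercetin pool 3. Without it, the log2 fold change turned to -0.14 for *Atf6*, 0.32 for *Edem1* and 0.0393 for *Ern1*, each on the other side of 0, and was -0.98 for *Hspa5* and -0.35 for *Hsp90b1*. *Eif2ak3* (-0.04), *Atf4* (-0.36), *Ddit3* (-0.31) and *Dnajb9* (-0.16) kept their sign. Without that pool, *Atf6*, *Hspa5* and *Hsp90b1* were lower in both remaining quercetin pools than in every control pool. In that reduced set 31.4% of all tested genes did not overlap and 12.75% had an unadjusted p under 0.05, shares that were 10.6% and 4.03% with all pools. None of the 9 genes reached an adjusted p under 0.05 in it by edgeR (quasi-likelihood test, Benjamini-Hochberg adjusted). Leaving out control pool 1 set the groups of *Dnajb9* apart, where 20.2% of all tested genes did so, and leaving out any of the other 4 pools set none of the 10 genes apart. Other pools moved the log2 fold changes too. Without control pool 2, *Hspa5* was at -0.06 and *Hsp90b1* at -0.01. Leaving out control pool 3 turned the sign of 3 of the 9 genes. Control pool 1, control pool 2 and quercetin pool 1 each turned 2 when left out, and quercetin pool 2 turned 0.

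The spread between pools of 1 group differed widely among the genes. Within groups, the SD of log2 CPM was 0.82 for *Edem1* and 0.67 for *Hspa5*, larger than in 96.0% and 93.1% of the 7920 tested genes with a mean of at least 5 CPM, whose median SD was 0.26. *Atf4* (0.39) and *Dnajb9* (0.38) were more variable than 74.0% and 73.1% of them. *Hsp90b1* (0.27), *Eif2ak3* (0.23) and *Atf6* (0.22) were close to the median. *Ern1* was the steadiest at 0.13, with a smaller SD in only 8.81% of genes.

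*Hspa5*, *Hsp90b1* and *Atf4*, the last without an ERSE match, were highest in control pool 2 and quercetin pool 3. Over the 6 pools, on log2 CPM, *Hspa5* and *Hsp90b1* had a Pearson's r of 0.94 (permutation p = 0.00556, 0.117 after Benjamini-Hochberg adjustment) and a Spearman's rho of 0.94 (permutation p = 0.0167, adjusted 0.336), and r was 0.93 within the groups. The pair was singled out after its values were seen among 36 pairs of genes, none of which passed the adjustment. Without the 2 pools farthest from the median of *Hspa5*, r of this pair was 1.00 over 4 pools. The next smallest permutation p-values were those of *Eif2ak3* with *Ddit3* (r = 0.87, p = 0.00694, adjusted 0.117) and of *Atf4* with *Hsp90b1* (r = 0.92, p = 0.00972, adjusted 0.117). For *Atf4* and *Hspa5* r was 0.89 (permutation p = 0.0264, adjusted 0.158) and rho 0.83 (permutation p = 0.0583, adjusted 0.336). Without the 2 pools farthest from the median of *Atf4*, r for this pair was 0.998.

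The ratio of the 2 chaperones was not constant, since *Hsp90b1* per length was 2.58 to 5.51 times *Hspa5*, with the lowest ratios in the pools where both were high. *Hspa5* per length was 0.936, 3.37 and 3.23 times *Edem1* in the control pools and 0.829, 0.860 and 6.30 times in the quercetin pools. Between *Edem1* and *Hspa5*, r was -0.68 (permutation p = 0.154, adjusted 0.396) and rho -0.60 (permutation p = 0.242, adjusted 0.512). An opposite course of these genes was therefore not shown. The relation of *Edem1* with *Atf6* (r = -0.85, permutation p = 0.0167, adjusted 0.14, and rho = -0.77, permutation p = 0.103, adjusted 0.336) rested on the 2 pools farthest from the median of *Edem1*, without which r was -0.31. The pools stood in the same order by *Hsp90b1* as by the first principal component, which was computed from all tested genes, these included. What the component stands for was not tested.

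**Figure D4:**
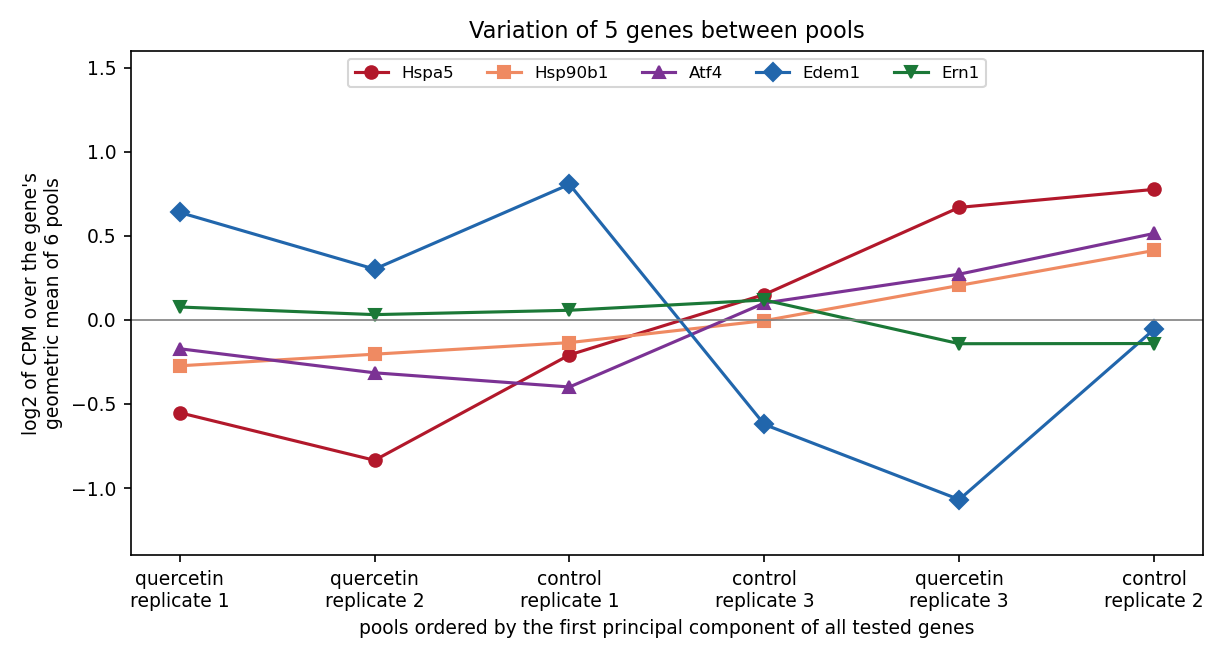
Log2 of CPM over each gene's geometric mean of the 6 pools, for 5 genes chosen after their values were seen, with the pools ordered by the first principal component of all tested genes (from -37.9 to 31.3). *Hspa5*, *Hsp90b1* and *Atf4* are highest in the last 2 pools, quercetin pool 3 and control pool 2, where *Ern1* is lowest.

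The rest of the pathway was read from 6 lists with 142 further genes, of which 109 were tested and 5 were at 0 in every pool. At an unadjusted p under 0.05, 3 were higher and 4 lower with quercetin, or 6.42% against 4.03% of all genes, and 14 (12.8%) did not overlap, against 10.6%. Without quercetin pool 3, 14 genes of the lists had an unadjusted p under 0.05 in place of 7, where the share of all tested genes was 12.75%. By edgeR (quasi-likelihood test, Benjamini-Hochberg adjusted) none passed, the smallest adjusted p being 0.988. The median log2 fold change was -0.02, close to that of all tested genes, with 51 above and 58 below 0. The genes below are described at the unadjusted p only. Whether their groups overlap is read from the same values as that p, so it is not separate support.

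Among 31 further targets of PERK, ATF4 and CHOP, 17 were tested, 0 were higher and 1 lower, with a median log2 fold change of -0.06. *Ddit4*, an inhibitor of mTORC1 that is induced by stress, had 59, 46 and 46 counts in the control and 32, 27 and 27 in the quercetin pools (log2 fold change -0.77, SE 0.28, edgeR unadjusted p = 0.0214). All 3 quercetin pools were below all control pools. Genes below the filter included *Atf3*, *Chac1*, *Sesn2*, *Nupr1* and *Cebpb*, and *Trib3* and *Tnfrsf10b* were at 0. Other targets, among them *Ppp1r15a*, *Gdf15* and *Slc7a11*, passed the filter and were tested. *Mthfd2*, a mitochondrial folate enzyme, was the most abundant at 106 CPM per kb (log2 fold change 0.12), while *Asns*, asparagine synthetase (0.32), and *Sars*, the cytosolic seryl-tRNA synthetase (-0.27), were the extremes among genes of at least 5 CPM.

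None of the 10 tested genes among the other eIF2 kinases, eIF2 and eIF2B (12 listed) had an unadjusted p under 0.05, and their median log2 fold change was 0.08. *Eif2b1*, a subunit of the eIF2 exchange factor, was the most abundant at 446 CPM per kb, with a log2 fold change of 0.26. *Eif2b3*, another subunit, was at 0.36 and *Impact*, an inhibitor of the eIF2 kinase GCN2, at -0.22.

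Among 23 partners of IRE1 and XBP1 targets of ER import, 20 were tested, 1 was higher and 1 lower, and the median log2 fold change was -0.12. *Bfar*, an ER-resident apoptosis regulator, had 674, 694 and 708 counts in the control and 892, 974 and 850 in the quercetin pools, all higher than every control (log2 fold change 0.42, SE 0.14, edgeR unadjusted p = 0.0157). *Fam98b*, a part of the tRNA ligase complex that joins the cut *Xbp1* mRNA, had 65, 54 and 81 against 24, 28 and 56 counts (log2 fold change -0.85, SE 0.36, edgeR unadjusted p = 0.0416), with 1 quercetin pool inside the control range. *Sec61b*, of the protein-conducting channel, was the most abundant at 111 CPM per kb with a log2 fold change of -0.17.

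Of 14 ATF6 proteases and related factors, 9 were tested and none had an unadjusted p under 0.05, with a median log2 fold change of 0.08, and *Creb3l1* and *Creb3l3* were at 0. *Creb3l4*, a membrane-bound factor related to ATF6, was the most abundant at 142 CPM per kb (log2 fold change 0.21), and *Nfya*, a subunit of the factor that binds CCAAT, was the lowest at -0.24.

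Among 35 further ER chaperones and folding enzymes, 29 were tested, 1 was higher and 0 were lower, and the median log2 fold change was 0.06. *Dnajb11*, the BiP cochaperone ERdj3, had 356, 291 and 334 counts in the control and 402, 424 and 420 in the quercetin pools (log2 fold change 0.38, SE 0.16, edgeR unadjusted p = 0.0458), without overlap. *Pdia3*, a disulfide isomerase for glycoproteins, was at -0.31 and *Fkbp14*, a prolyl isomerase, at 0.41, the lowest and highest among genes of at least 5 CPM, while *Creld2* was the most abundant at 124 CPM per kb (log2 fold change 0.14).

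Among 27 genes of ER-associated degradation, 24 were tested, 1 was higher and 2 were lower, with a median log2 fold change of -0.06. *Edem2*, a relative of *Edem1* that trims mannose from glycoproteins, had 1780, 1368 and 1786 counts in the control and 2140, 2193 and 1901 in the quercetin pools (log2 fold change 0.37, SE 0.15, edgeR unadjusted p = 0.0312). *Nploc4*, a cofactor of the p97 ATPase, had 19, 36 and 32 against 16, 14 and 9 counts (log2 fold change -1.12, SE 0.41, edgeR unadjusted p = 0.0226). *Ubxn4*, an ER-bound partner of p97, had 1253, 1123 and 1173 against 795, 715 and 1033 counts (log2 fold change -0.44, SE 0.18, edgeR unadjusted p = 0.0340). In each of these 3 genes the groups did not overlap. *Os9*, a lectin of the pathway, had a log2 fold change of -0.48, the lowest of the list among genes of at least 5 CPM.

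**Figure D5:**
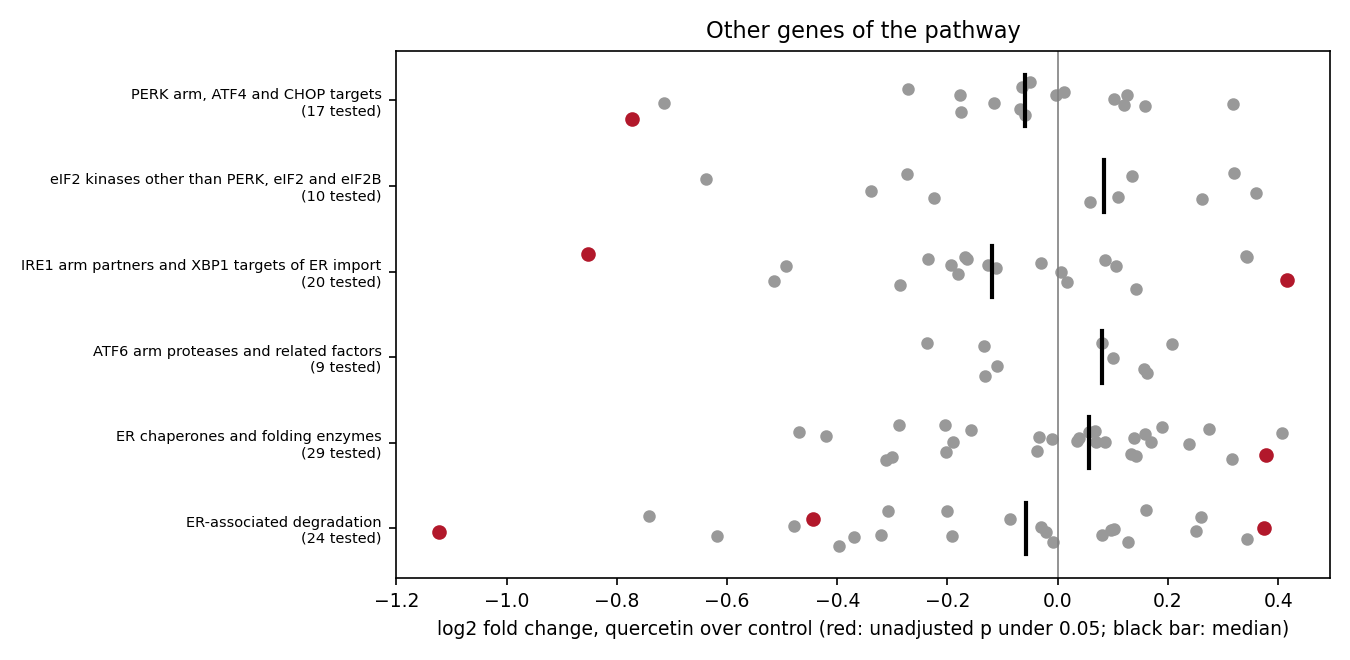
Log2 fold change of quercetin over control for the tested genes of 6 lists of the wider pathway, each point 1 gene, red where the unadjusted p is under 0.05, with a black bar at the list's median. The 7 red points lie on both sides of 0 (3 higher, 4 lower) and the medians run from -0.12 to 0.08.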

How the data were processed

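The authors deposited raw counts of reads per Ensembl gene for each of 6 pools, not normalized. Libraries were made with a SMART-Seq kit that does not mark strand. The paper names Hisat2 and GRCm38, and the submitters' processing notes name CASAVA 1.8 and TopHat2 2.0.6, so the aligner behind the counts is uncertain. The counting program and its treatment of shared reads are not given in the sources used here. Rows without a gene name held 0.0893% of counts.

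From these counts, genes were kept by filterByExpr (minimum count 10) of edgeR 4.0.16 in R 4.3.3, scaled by TMM, and compared by the quasi-likelihood test with Benjamini-Hochberg adjustment over 11842 genes. Two-sided exact permutation tests used log2 CPM with a prior count of 0.5. CPM per kb used the merged exons of GENCODE M21. The limit of 3 counts covers counting error only. Symbols came from Ensembl gene names, which matched 53274 identifiers. The fit was tested on simulated counts.

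The members, lists and rules were chosen with earlier results of these data known. Named from each list were genes with an unadjusted p under 0.05 and, among those with a mean of at least 5 CPM, the highest and lowest log2 fold change and the highest CPM per kb. A gene that this rule names is not reported here. Alternatives were limma-voom (limma 3.58.1), DESeq2 1.42.0, the likelihood ratio test, other scalings and filters, a replicate block and leaving out each pool. Samples were grouped by their labels.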

Additional observations from a re-analysis of the deposited data

How the results depend on the processing

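Over 14 other fits, no alternative gave any of the 9 tested genes an adjusted p under 0.05. With all pools, all scalings and tests kept the direction of each of the 9 genes except that of *Atf6*, which was -0.0102 with library size only. Genes past 2-fold at an adjusted p under 0.05 numbered 12 by DESeq2, 16 by the likelihood ratio test, 3 without a filter and 0 to 7 when a pool was left out, against 0. Those with an unadjusted p under 0.05 numbered 780 without a filter and 241 to 1563 when a pool was left out, against 477. When a pool was left out, 0 to 1 of the 9 genes had an unadjusted p under 0.05 (*Hspa5*, without quercetin pool 3), 0 to 3 of the 10 did not overlap, and 2 to 14 genes of the wider lists had an unadjusted p under 0.05. The log2 fold change then ran from -0.13 to 0.10 for *Eif2ak3*, -0.37 to 0.0794 for *Atf4*, -0.37 to 0.0446 for *Ddit3*, -0.0949 to 0.0393 for *Ern1*, -0.32 to 0.12 for *Dnajb9*, -0.39 to 0.44 for *Edem1* and -0.14 to 0.17 for *Atf6*, so their direction is not settled, while *Hspa5* (-0.98 to -0.06) and *Hsp90b1* (-0.35 to -0.01) stayed below 0. The cause of these shifts was not tested. The replicate numbers were not taken as pairs. For this, the deviation of each gene's log2 CPM from its group mean was compared between same-numbered pools. These deviations correlated at 0.296, 0.101 and -0.0303 over the tested genes. With the replicate block 492 genes had an unadjusted p under 0.05, 0 of them among the 9. *Ddit3* had no value with at least 10 counts in every pool, and depth limits *Ddit3* and *Xbp1* most.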
